A study of Mus musculus with 4 samples.

Results

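The genes described here carry pyruvate into the mitochondrion and through the tricarboxylic acid (TCA) cycle. They were chosen by name: the carrier that takes pyruvate in, the pyruvate dehydrogenase (PDH) complex and its kinases, the enzymes of the cycle, and the malic enzymes, transaminases and glutamate dehydrogenase that link it to other pathways. Of the 34 genes, 33 were measured among 22180 genes in all, each by the brightest of the probe sets that carried its name alone, and Mpc2 was not analysed here. Proliferating Tregs were compared with resting Tregs. Tregs are T-cells that express Foxp3 and hold other immune cells in check, and these came from NOD mice, which develop diabetes of autoimmune origin. According to the labels both groups came from 5-day co-cultures of Tregs with dendritic cells, which had been grown out of bone marrow under GM-CSF. They were separated by a dye that each division dilutes (CFSE in the labels, cell trace violet in the methods), so that proliferating Tregs had diluted it and resting Tregs had kept it. Age and sex of the mice are not given in the labels. RNA of 2 samples per group was hybridised to 1 whole-transcript array each. Neither group carried a gene deletion or transgene that the labels name. No source used here says whether a group's samples were separate cultures or animals, so that the p-values below reflect the spread among these 4 samples alone, and that spread may be technical.

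Pyruvate made by glycolysis crosses the inner mitochondrial membrane through a carrier made of the Mpc1 and Mpc2 proteins. The PDH complex turns it into acetyl-CoA, and PDH kinases switch that complex off by phosphorylating it. Citrate synthase joins acetyl-CoA to oxaloacetate, and the following steps release carbon dioxide and pass electrons to the respiratory chain. The cycle also supplies citrate, aspartate and other precursors that a dividing cell builds into lipids and nucleotides. Regulatory T-cells are known for relying on mitochondrial oxidation more than effector T-cells do.

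Most of these genes had higher values in proliferating Tregs on the deposited scale, but not relative to housekeeping genes (9 higher and 12 lower, or 15 and 5 without Hprt) or to the Cd3 genes (1 higher, 27 lower). On the deposited values, which are log2 expression levels, 29 of the 33 measured genes (87.9%) were higher at an adjusted p under 0.05, 4 did not pass and none was lower (limma's moderated test, Benjamini-Hochberg adjustment over all genes). Of all 22180 genes, 60.1% passed by the same rule, 25.6% higher and 34.5% lower. Without adjustment, at p under 0.05, the count lower was also 0, as it was by the Student's t-test that the methods name. With Benjamini-Hochberg adjustment that test called 18 of the 33 genes higher, against 12.5% of all genes higher and 6.9% lower. Idh1, Idh2, Ogdh, Dlst, Dlat, Pdhx, Pdk1, Pdk3, Mpc1, Got1 and Got2, which passed the limma test, did not pass it. The median log2 fold change of the 33 genes was 1.06, against -0.17 for all genes, and 18 of them (54.5%) passed with a rise of at least 2-fold, against 12.6% of all genes. In 29 genes both proliferating arrays lay above both resting arrays (33% of all genes), and in Suclg2 both lay below (48.1% of all genes).

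**Figure D1:**
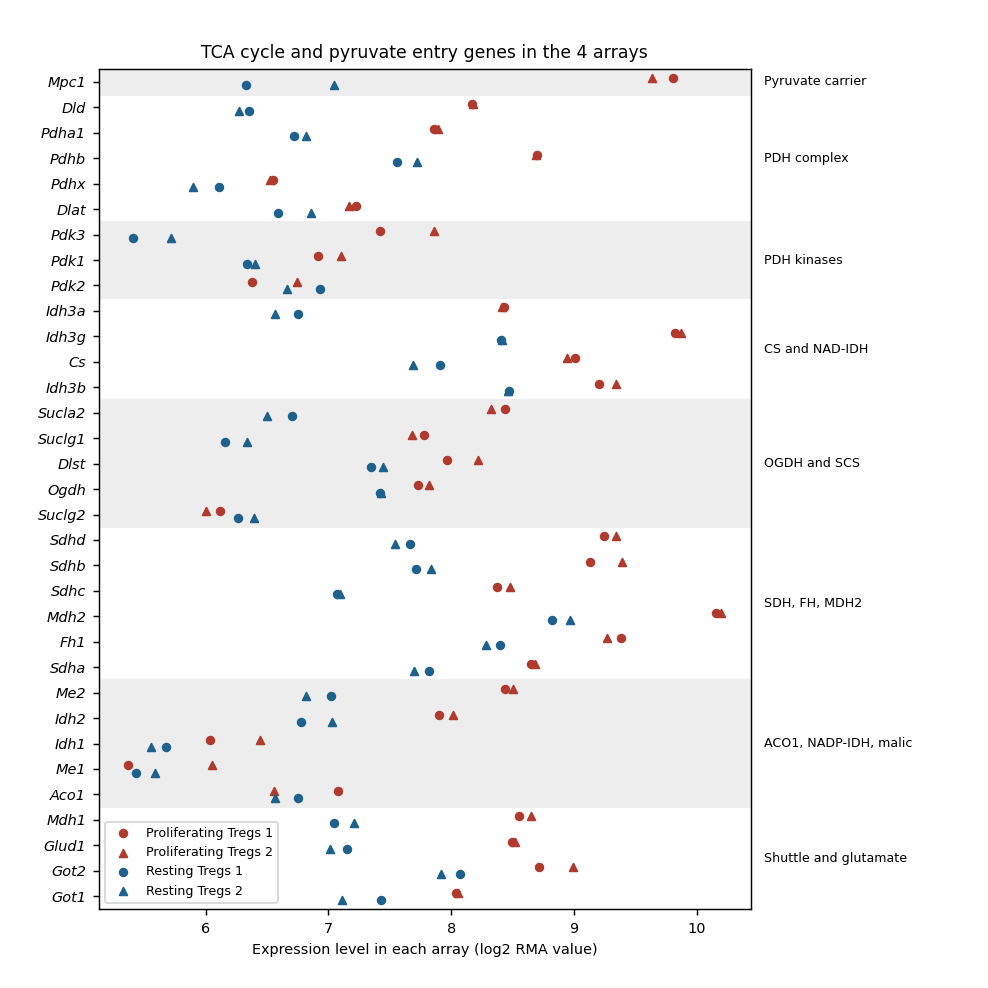
Expression level (x axis, log2 RMA value) of each of the 33 measured genes (y axis, grouped by role) in the 2 proliferating arrays (red) and the 2 resting arrays (blue), with replicate 1 as a circle and replicate 2 as a triangle. In 29 genes the red symbols lie to the right of both blue symbols, whereas those of Pdk2, Me1 and Aco1 overlap and those of Suclg2 lie to the left. Relative to housekeeping genes 12 genes were lower (5 without Hprt), and relative to the Cd3 genes 27. Levels of different genes come from different probes and are not comparable.

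The direction depends on what the arrays are scaled to. Relative to the mean of 8 housekeeping genes, 9 of the 33 genes were higher and 12 lower, with 6.39% of all genes higher and 83.8% lower. The housekeeping genes themselves differed between the groups, by 0.0888 (Polr2a) to 3.52 (Hprt) on the log2 scale. Leaving out Hprt, a setting added after seeing the data, lowered the subtracted change to 0.81 and gave 15 of the 33 genes higher and 5 lower (Aco1, Me1, Ogdh, Pdk2 and Suclg2), with 10.3% and 75.3% of all genes. The genes higher only without Hprt were Cs, Idh3g, Suclg1, Sdhc, Mdh2 and Glud1, and Dlat, Pdhx, Pdk1, Idh3b, Dlst, Idh1 and Got1 were lower only with it. Relative to Cd3d, Cd3e and Cd3g, which encode chains of the T-cell receptor complex, only Mpc1 was higher and 27 were lower, with 1.48% and 94.7% of all genes. Centring on all 8 housekeeping genes and on the Cd3 genes moved the median of all genes by -1.15 and -1.97 on the log2 scale. After quantile normalization 23 were higher and none lower (25.3% and 21.2% of all genes), and after centring on the median of all genes 29 and none (32.8% and 18.2%). A centring moves every gene by one amount, and under each of them 31 of the 33 genes lay above the median of all genes. The distance between the medians was 1.23 on the deposited values and 0.80 after quantile normalization, and it was smallest, at 0.64, among genes with a mean level of at least 7 (medians 1.28 and 0.65). The deposited values spread wider in proliferating Tregs, with standard deviations across named genes of 1.43 and 1.44, against 1.13 and 1.13 in resting Tregs. The median of all probe sets was 5.995 and 5.97 in proliferating Tregs, against 6.27 and 6.27 in resting Tregs. Brighter genes were more often higher: among the 5687 genes with a mean level of at least 7, a limit set once the data had been seen, 65.2% were higher, as were all 23 of the TCA cycle and pyruvate entry genes that reach it. That mean covers all 4 arrays. Mpc1, Dld, Sucla2, Idh3a, Me2, Pdha1 and Idh2 had resting means under 7 (6.31 to 6.92) and reached it through their proliferating values. Their rise in this subset was therefore partly built in.

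**Figure D2:**
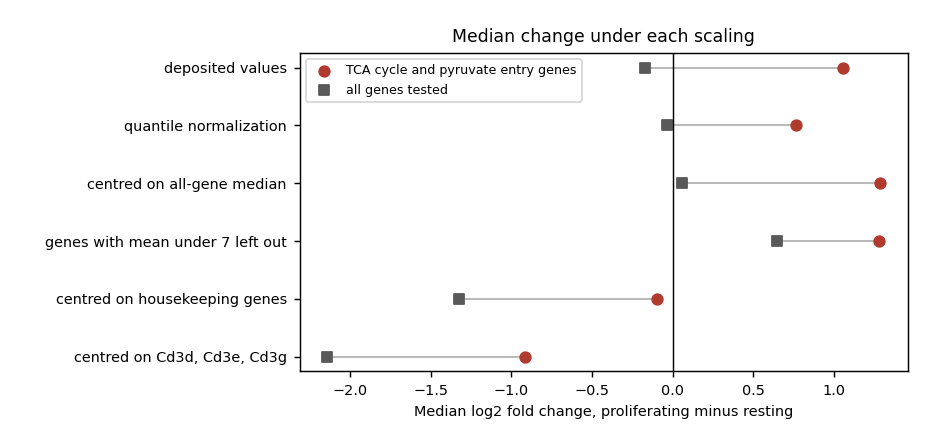
Median log2 fold change, proliferating minus resting (x axis), of the TCA cycle and pyruvate entry genes (red circles) and of all genes tested (grey squares) under 6 scalings or filters (y axis). The red circle lies to the right of the grey square in each of the 6, at 1.06 against -0.17 on the deposited values and at -0.91 against -2.14 after centring on the Cd3 genes. A centring moves every gene by one amount, so under the centrings the distance merely repeats that of the deposited values. With genes of mean level under 7 left out, the circle stands for 23 genes, some of which reach that mean only through their proliferating values.

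Markers of other cells moved with the groups. The 10 neutrophil markers and the 8 B-cell markers measured all fell in proliferating Tregs, on the deposited scale. Their summed linear signals were 763.5 to 812.9 in proliferating Tregs and 10950.4 to 12077.2 in resting Tregs for neutrophils, and 550.8 to 599.9 in proliferating Tregs and 3714.7 to 3978.5 in resting Tregs for B-cells. Of 11 dendritic and myeloid markers 7 were higher and 1 lower, summing to 4020.9 to 4621.6 in proliferating Tregs and 2118.1 to 2287.1 in resting Tregs. Lyz2 and Clec4n, the brightest of them in proliferating Tregs, were 2.58-fold and 18.4-fold higher. H2-Ab1 was 5.9-fold lower, and Itgax, Itgam and Mrc1 did not pass, so that the list did not move as one. The 10 Treg and T-cell markers summed to 14367.3 to 14451 in proliferating Tregs and 3229.4 to 3337.4 in resting Tregs. Of the 6 CD8 and NK cell markers Cd8a, Cd8b1 and Ncr1 were lower (2.78-fold, 1.99-fold and 1.43-fold) and Nkg7 was 2.10-fold higher, so that their sums, 1031.6 to 1139.1 in proliferating Tregs and 1132.6 to 1153.8 in resting Tregs, overlapped. Of the erythroid and platelet list only the platelet chemokine genes Pf4 and Ppbp were measured, of which Pf4 was 17.2-fold higher and Ppbp 1.38-fold lower, and they summed to 1199.6 to 1206 in proliferating Tregs and 148.2 to 152.2 in resting Tregs. Foxp3 itself was at 10.15 and 10.15 in proliferating Tregs, against 8.30 and 8.26 in resting Tregs, and Mki67, the gene of the proliferation antigen, at 9.13 and 9.23 in proliferating Tregs, against 6.82 and 6.93 in resting Tregs. The part of such cells in the results below was not tested, and in RNA from bulk samples fewer cells of a type and less RNA per cell cannot be told apart.

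Pyruvate entry held the gene with the largest rise of the 33, by the brightest probe set of each gene. Mpc1, which encodes a subunit of the mitochondrial pyruvate carrier, was at 9.81 and 9.63 in proliferating Tregs, against 6.33 and 7.04 in resting Tregs. The resting arrays differed from each other by more than for any other member, yet both lay far below the proliferating arrays (8.19-fold higher, log2 fold change 3.03, standard error 0.23, adjusted p = 4.47e-05). By this probe set it was also the only member that was higher after centring on the Cd3 genes. A second, dimmer probe set of Mpc1 was at 7.43 and 7.16 in proliferating Tregs, against 6.86 and 6.75 in resting Tregs, a rise of 1.41-fold, and it lay below 0 relative to housekeeping genes (-0.66) and to the Cd3 genes (-1.48). The size of the Mpc1 change therefore rested on the probe set, although both passed the test (adjusted p = 5.28e-05 and 0.0221 over all named probe sets). In resting Tregs the levels of these probe sets overlapped. The one used was the brighter only through its proliferating values, the group where it is high.

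All 5 genes of the PDH complex rose on the deposited scale, to unequal extents, although relative to housekeeping genes Dlat and Pdhx were lower and only Dld higher, and relative to the Cd3 genes all but Dld were lower. The largest change was in Dld, the lipoamide dehydrogenase that PDH shares with oxoglutarate dehydrogenase, at 8.17 and 8.18 in proliferating Tregs, against 6.35 and 6.27 in resting Tregs (3.64-fold, adjusted p = 3.01e-05). The replicates of Dld differed far less than the groups did. Pdha1 and Pdhb, the subunits of the enzyme that decarboxylates pyruvate, moved by nearly the same amount on the deposited values. Pdha1 was at 7.86 and 7.89 in proliferating Tregs, against 6.72 and 6.81 in resting Tregs (2.16-fold, adjusted p = 3.17e-04). For Pdhb the values were 8.70 and 8.69 in proliferating Tregs, against 7.56 and 7.72 in resting Tregs (2.08-fold, adjusted p = 4.59e-04). Within each array the difference of this pair changed by only 0.0525 on the log2 scale between the groups, and it overlapped between them. Quantile normalization set them further apart, with log2 fold changes of 0.98 for Pdha1 and 0.56 for Pdhb. Dlat, the core transacetylase that carries lipoic acid, and Pdhx, which tethers Dld to that core, moved least. Dlat was at 7.22 and 7.17 in proliferating Tregs, against 6.59 and 6.86 in resting Tregs (1.39-fold, adjusted p = 0.0230). Pdhx had 6.55 and 6.53 in proliferating Tregs, against 6.11 and 5.90 in resting Tregs (1.45-fold, adjusted p = 0.0111). Dlat did not pass without resting replicate 1 (adjusted p = 0.149), nor Pdhx without resting replicate 2 (adjusted p = 0.0844).

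The PDH kinases, which inhibit the complex, did not move alike. Pdk3 rose 4.22-fold, at 7.42 and 7.86 in proliferating Tregs, against 5.41 and 5.72 in resting Tregs (log2 fold change 2.08, standard error 0.19, adjusted p = 9.83e-05). Pdk1 was at 6.91 and 7.10 in proliferating Tregs, against 6.34 and 6.40 in resting Tregs (1.55-fold, adjusted p = 0.00520), and did not pass without resting replicate 1 (adjusted p = 0.0520). A dimmer probe set of Pdk1 was at 6.95 and 7.49 in proliferating Tregs, against 4.47 and 4.59 in resting Tregs, which is 6.46-fold higher. Both probe sets of Pdk1 thus had the same direction on the deposited scale but not after centring, where the dimmer one stayed above 0 (log2 fold change 1.54 relative to housekeeping genes and 0.72 relative to the Cd3 genes) and the brighter one did not (-0.51 and -1.33). Pdk2 had 6.38 and 6.75 in proliferating Tregs, against 6.93 and 6.66 in resting Tregs, so that the groups overlapped (log2 fold change -0.24, 95% interval -0.63 to 0.16, adjusted p = 0.261). Within the arrays, Pdk3 minus Pdk2 was 1.05 and 1.11 in proliferating Tregs, against -1.52 and -0.94 in resting Tregs, so that the balance moved 4.97-fold toward Pdk3. With 2 arrays against 2 an exact permutation test cannot go below a two-sided p = 0.333, which this difference reached. No scaling of whole arrays by a constant changes such a difference, but quantile normalization can. By it the log2 fold changes were 2.08 for Pdk3 and -0.12 for Pdk2. After centring on housekeeping genes Pdk3 was higher and Pdk2 and the brighter probe set of Pdk1 lower, and after centring on the Cd3 genes these 2 were lower and Pdk3 did not pass (log2 fold change 0.11).

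The upstream stretches of Pdk3 and Pdk2 are shown because these related kinases had the largest difference in change of the 12 pairs compared, each gene by its brightest probe set. They are the 150 bases before the start in the RefSeq promoter table (GRCm38.p6), 5′ to 3′ on the gene's strand, at chrX:93832151-93832300, minus strand for Pdk3 and chr11:95041372-95041521, minus strand for Pdk2, of which a further annotated start was not printed. Capitals mark the motifs searched for, which are CACGTG (E-box), CCGGAAG (ETS), TCAAGGTCA (ERR), GGGCGG (GC box) and CCAAT, and the NRF1 palindrome, on both strands.
Pdk3: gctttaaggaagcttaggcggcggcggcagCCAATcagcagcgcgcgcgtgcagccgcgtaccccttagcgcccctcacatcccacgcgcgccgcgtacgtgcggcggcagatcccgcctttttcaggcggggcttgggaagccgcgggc
Pdk2: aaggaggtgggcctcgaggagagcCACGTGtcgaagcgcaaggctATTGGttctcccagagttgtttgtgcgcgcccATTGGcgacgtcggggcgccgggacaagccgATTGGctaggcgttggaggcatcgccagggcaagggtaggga
The stretch of Pdk3 held 1 CCAAT box, and that of Pdk2 held 3 CCAAT boxes and 1 E-box.

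**Figure D3:**
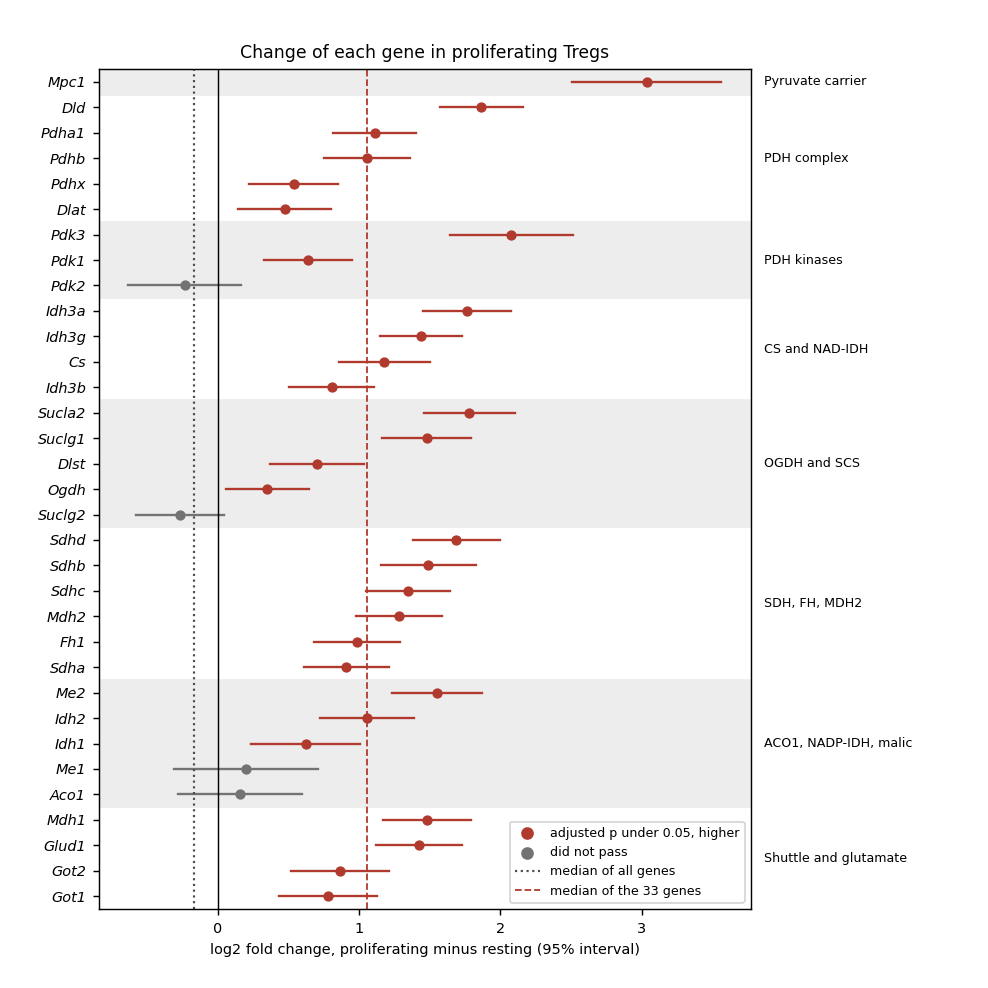
Log2 fold change, proliferating minus resting (x axis), with its 95% interval from the limma fit (bars) for each of the 33 genes (y axis, grouped by role) on the deposited values. Genes past the test are red and the 4 that did not pass are grey. The dashed line marks the median of the 33 genes at 1.06 and the dotted line that of all genes at -0.17. After centring on housekeeping genes 9 genes remained higher and 12 were lower (15 and 5 without Hprt).

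Citrate synthase and the NAD-linked isocitrate dehydrogenase, which control entry into the cycle and its first oxidation, were higher in all 4 genes on the deposited scale, whereas Idh3a was higher and Idh3b lower relative to housekeeping genes, and Cs, Idh3b and Idh3g were lower relative to the Cd3 genes. Cs, the citrate synthase gene, was at 9.01 and 8.94 in proliferating Tregs, against 7.91 and 7.69 in resting Tregs (2.26-fold, adjusted p = 3.53e-04). Idh3a, the catalytic subunit of the dehydrogenase, was at 8.43 and 8.42 in proliferating Tregs, against 6.75 and 6.56 in resting Tregs (3.39-fold, adjusted p = 4.69e-05). Its partner subunits rose less. Idh3g was at 9.83 and 9.87 in proliferating Tregs, against 8.41 and 8.41 in resting Tregs (2.71-fold, adjusted p = 8.45e-05). Idh3b had 9.20 and 9.34 in proliferating Tregs, against 8.47 and 8.46 in resting Tregs (1.75-fold, adjusted p = 0.00155). In each case the groups lay well apart. Idh3a minus Idh3b within an array was -0.78 and -0.93 in proliferating Tregs, against -1.72 and -1.89 in resting Tregs, a relative gain of 1.94-fold for Idh3a (exact permutation p = 0.333, the smallest possible). Quantile normalization left Idh3b short of the test (log2 fold change 0.20, adjusted p = 0.243).

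Of the oxoglutarate dehydrogenase and succinyl-CoA ligase genes, 4 of 5 rose on the deposited scale, whereas relative to housekeeping genes Sucla2 was higher and Dlst, Ogdh and Suclg2 lower, and relative to the Cd3 genes all but Sucla2 were lower. Ogdh, the decarboxylating subunit, had the smallest change that passed, at 7.73 and 7.82 in proliferating Tregs, against 7.42 and 7.43 in resting Tregs (1.27-fold, adjusted p = 0.0450). It did not pass with any single array left out (adjusted p = 0.0545 to 0.151). Dlst, the succinyltransferase core, was at 7.97 and 8.22 in proliferating Tregs, against 7.35 and 7.44 in resting Tregs (1.62-fold, adjusted p = 0.00447). Dlst did not pass after quantile normalization (log2 fold change 0.34, adjusted p = 0.0823) or without resting replicate 1 (adjusted p = 0.0512). Succinyl-CoA ligase joins a shared alpha subunit, from Suclg1, to a beta subunit that is specific for ATP (Sucla2) or for GTP (Suclg2). Suclg1 was at 7.78 and 7.68 in proliferating Tregs, against 6.16 and 6.34 in resting Tregs (2.79-fold, adjusted p = 1.05e-04). Sucla2 was at 8.44 and 8.33 in proliferating Tregs, against 6.71 and 6.50 in resting Tregs (3.43-fold, adjusted p = 5.14e-05). The proliferating arrays were thus clearly above the resting ones for the alpha and the ATP-specific beta subunit. Suclg2 was at 6.12 and 6.0 in proliferating Tregs, against 6.26 and 6.40 in resting Tregs, with both proliferating arrays below both resting arrays and a log2 fold change of -0.27 that did not pass (95% interval -0.58 to 0.0408, adjusted p = 0.114). Its dimmer probe set was at 5.44 and 5.65 in proliferating Tregs, against 5.40 and 5.26 in resting Tregs, and did not pass either (log2 fold change 0.21, adjusted p = 0.217 over all named probe sets). The difference of Sucla2 and Suclg2 within an array was 2.32 and 2.33 in proliferating Tregs, against 0.45 and 0.11 in resting Tregs, a 4.13-fold move toward the ATP-specific subunit (exact permutation p = 0.333, the smallest possible). By the dimmer probe set of Suclg2 the move was smaller (log2 fold changes 1.78 for Sucla2 and 0.21 for Suclg2). It was also smaller after quantile normalization (1.62 and 0.0074). Suclg2 was dim, with values near the median of all probe sets (5.97 to 6.27 over the 4 arrays), and RMA compresses low values.

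In all, 12 pairs of related genes were compared within arrays. The difference did not overlap between the groups in 9 of them, each with an exact permutation p = 0.333 (0.444 after Benjamini-Hochberg adjustment over the pairs), so that none could pass. Non-overlap was common on these arrays: of all single genes, 33% did not overlap and were higher, and 48.1% did not overlap and were lower. The share among pairs of unrelated genes was not determined, so the count of 9 is not a result about related genes. Besides the pairs given elsewhere, Pdk1 minus Pdk3 changed by -1.44, Pdk1 minus Pdk2 by 0.87, Idh1 minus Idh2 by -0.43 and Idh3a minus Idh3g by 0.32 on the log2 scale (standard errors 0.23, 0.22, 0.22 and 0.18). These differences are on the deposited values, and some changed with quantile normalization. By it the log2 fold changes were 0.875 and 0.877 for Idh1 and Idh2, which left no difference, and 1.58 and 0.81 for Idh3a and Idh3g. The pairs with Pdk1 depended on its probe set: by the dimmer one Pdk1 minus Pdk3 changed by 0.61, the opposite direction, and Pdk1 minus Pdk2 by 2.93.

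To set Sucla2 and Suclg2 side by side, the same 150-base upstream stretches (GRCm38.p6, 5′ to 3′, motifs in capitals as above) were read at chr14:73552636-73552785, plus strand for Sucla2 and chr6:95718847-95718996, minus strand for Suclg2, where the last 12 bases of the stretch lie inside the span that the gene table gives Suclg2.
Sucla2: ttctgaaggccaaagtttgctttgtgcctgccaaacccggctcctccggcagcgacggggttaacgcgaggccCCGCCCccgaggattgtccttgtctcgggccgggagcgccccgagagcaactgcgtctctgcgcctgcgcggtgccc
Suclg2: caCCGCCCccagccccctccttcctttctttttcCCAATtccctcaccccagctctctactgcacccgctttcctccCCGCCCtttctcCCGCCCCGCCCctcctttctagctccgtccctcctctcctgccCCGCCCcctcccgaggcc
Sucla2 held 1 GC box in this stretch, whereas Suclg2 held 5 GC boxes and 1 CCAAT box.

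**Figure D4:**
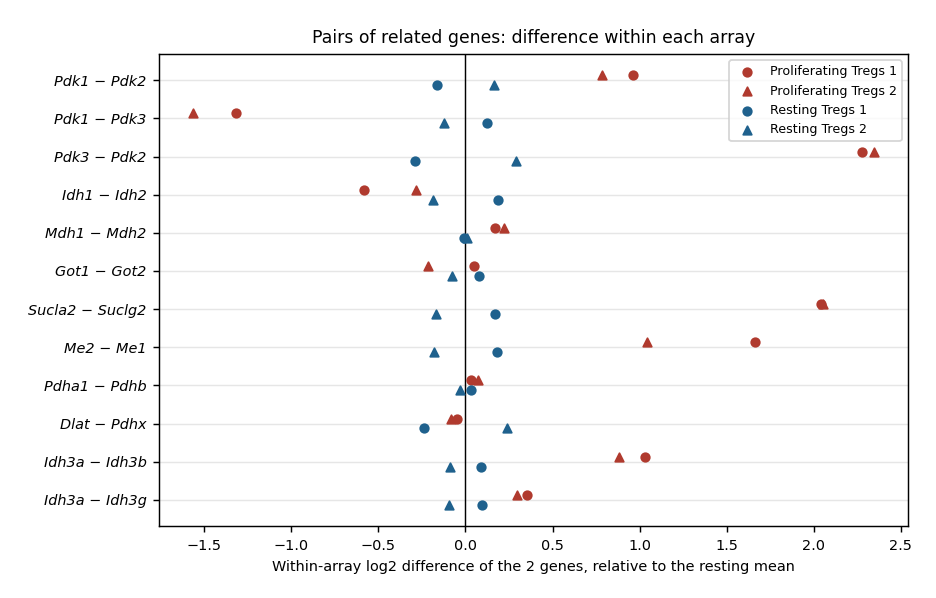
Difference of 2 related genes within each array on the log2 scale, relative to its mean in resting Tregs (x axis), for 12 pairs (y axis), with proliferating arrays in red and resting arrays in blue (circle, replicate 1, and triangle, replicate 2). The values are the deposited ones, on which Suclg2 and Me1 were dim. Red symbols lie far from blue ones for Pdk3 and Pdk2, Sucla2 and Suclg2, and Me2 and Me1, and overlap them for Got1 and Got2, Pdha1 and Pdhb, and Dlat and Pdhx.

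Succinate dehydrogenase oxidises succinate and is also complex II of the respiratory chain, and its 4 subunit genes were higher on the deposited scale, as were Sdhb and Sdhd relative to housekeeping genes, while relative to the Cd3 genes all but Sdhd were lower. Sdhd, a membrane anchor, was at 9.24 and 9.34 in proliferating Tregs, against 7.66 and 7.54 in resting Tregs (3.22-fold, adjusted p = 5.06e-05). Sdhb, the iron-sulfur subunit, was at 9.13 and 9.39 in proliferating Tregs, against 7.71 and 7.83 in resting Tregs (2.81-fold, adjusted p = 1.40e-04). Sdhc, the other anchor, had 8.37 and 8.48 in proliferating Tregs, against 7.07 and 7.09 in resting Tregs (2.54-fold, adjusted p = 1.26e-04). The membrane anchors and the iron-sulfur subunit thus lay well above their resting levels. The flavoprotein gene Sdha had the smallest change of the complex, at 8.65 and 8.68 in proliferating Tregs, against 7.82 and 7.70 in resting Tregs (1.88-fold, adjusted p = 8.52e-04). Fumarase and the mitochondrial malate dehydrogenase, which complete the cycle, were higher as well, but neither was relative to housekeeping genes and both were lower relative to the Cd3 genes. Fh1, the fumarase gene, was at 9.38 and 9.27 in proliferating Tregs, against 8.39 and 8.28 in resting Tregs (1.98-fold, adjusted p = 6.36e-04). Mdh2 was at 10.15 and 10.20 in proliferating Tregs, against 8.82 and 8.97 in resting Tregs (2.43-fold, adjusted p = 1.76e-04). No proliferating array of these 6 genes fell within the range of the resting arrays. After quantile normalization Fh1 did not pass (log2 fold change 0.37, adjusted p = 0.0565).

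The upstream stretch of Sdhd, the subunit gene of succinate dehydrogenase with the largest change, is shown as an example of the ETS motif (150 bases before the start, GRCm38.p6, chr9:50603850-50603999, minus strand, 5′ to 3′).
Sdhd: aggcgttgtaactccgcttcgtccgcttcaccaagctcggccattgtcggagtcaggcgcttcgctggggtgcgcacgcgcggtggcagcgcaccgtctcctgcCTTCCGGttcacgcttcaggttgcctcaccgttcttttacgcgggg
The match begins 46 bases before the start. In all, 30 of the 33 genes matched the RefSeq promoter table by symbol, with 40 windows, each holding a start and the bases around it, most of them upstream. Of these windows 17.5% held CCGGAAG, 65% GGGCGG, 57.5% CCAAT, 10% CACGTG, 2.5% TCAAGGTCA and none the NRF1 palindrome. The shares among the 21263 windows of protein-coding genes were 11.6%, 46.2%, 38.2%, 7.84%, 0.334% and 1.33%. The 7 genes with CCGGAAG were Dlst, Glud1, Idh3b, Idh3g, Mpc1, Sdhb and Sdhd. Matches describe letters only, some genes have several windows, and none of these motifs contains another.

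Of the enzymes that work beside the cycle, Idh1, Idh2 and Me2 rose on the deposited scale and Aco1 and Me1 did not pass, whereas relative to housekeeping genes Me2 was higher and Aco1, Idh1 and Me1 lower, and relative to the Cd3 genes all 5 were lower. Me2, a mitochondrial malic enzyme that makes pyruvate from malate, was at 8.44 and 8.50 in proliferating Tregs, against 7.02 and 6.82 in resting Tregs (2.93-fold, adjusted p = 8.73e-05). Its cytosolic relative Me1 was at 5.37 and 6.05 in proliferating Tregs, against 5.43 and 5.59 in resting Tregs (log2 fold change 0.20, 95% interval -0.31 to 0.71, adjusted p = 0.453). The proliferating arrays of Me1 lay on either side of the resting ones. Without proliferating replicate 1 the log2 fold change of Me1 was 0.54 and passed (adjusted p = 0.0170), and without proliferating replicate 2 it was -0.14, so that its direction rested on single arrays. Me2 minus Me1 within an array was 3.07 and 2.45 in proliferating Tregs, against 1.59 and 1.23 in resting Tregs, a 2.55-fold move toward Me2 (exact permutation p = 0.333, the smallest possible). Idh2, the mitochondrial NADP-linked isocitrate dehydrogenase, was at 7.90 and 8.01 in proliferating Tregs, against 6.78 and 7.03 in resting Tregs (2.08-fold, adjusted p = 7.07e-04). Idh1, its cytosolic relative, was at 6.03 and 6.44 in proliferating Tregs, against 5.68 and 5.56 in resting Tregs (1.54-fold, adjusted p = 0.0140). The groups of both genes lay apart, but Idh1 did not pass without proliferating replicate 2 or either resting replicate (adjusted p = 0.0501, 0.0713 and 0.106). Aco1 encodes the cytosolic aconitase that also acts as an iron regulatory protein, and it was at 7.08 and 6.55 in proliferating Tregs, against 6.75 and 6.57 in resting Tregs (log2 fold change 0.16, 95% interval -0.29 to 0.60, adjusted p = 0.496). One proliferating array of Aco1 was above the resting ones and the other below.

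The malate-aspartate shuttle, which moves electrons of cytosolic NADH into the mitochondrion, and glutamate dehydrogenase were higher in all 4 genes on the deposited scale, whereas Mdh1 was higher and Got1 lower relative to housekeeping genes, and all 4 were lower relative to the Cd3 genes. Mdh1, the cytosolic malate dehydrogenase, was at 8.55 and 8.65 in proliferating Tregs, against 7.04 and 7.21 in resting Tregs (2.79-fold, adjusted p = 1.01e-04). Glud1, which feeds glutamate into the cycle as oxoglutarate, was at 8.49 and 8.52 in proliferating Tregs, against 7.15 and 7.01 in resting Tregs (2.68-fold, adjusted p = 1.05e-04). The transaminases changed less. Got1, the cytosolic form, was at 8.04 and 8.05 in proliferating Tregs, against 7.43 and 7.11 in resting Tregs (1.72-fold, adjusted p = 0.00340). Got2, the mitochondrial form, was at 8.72 and 8.99 in proliferating Tregs, against 8.07 and 7.91 in resting Tregs (1.82-fold, adjusted p = 0.00217). Both transaminases thus lay above their resting levels. The dimmer probe set of Got2 was at 6.64 and 6.82 in proliferating Tregs, against 6.32 and 6.55 in resting Tregs, and did not pass (1.23-fold, adjusted p = 0.113 over all named probe sets). Got1 minus Got2 overlapped between the groups, and so these transaminases moved by amounts that the arrays did not tell apart (difference of the log2 fold changes -0.0816, standard error 0.21). Neither passed after quantile normalization (adjusted p = 0.0563 for Got1 and 0.153 for Got2), where Got1 had the larger log2 fold change (0.47 against 0.29). Mdh1 minus Mdh2 was -1.60 and -1.55 in proliferating Tregs, against -1.78 and -1.76 in resting Tregs, a difference of 0.20 with a standard error of 0.19. Quantile normalization gave log2 fold changes of 1.14 for Mdh1 and 0.66 for Mdh2.

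Other genes of the same metabolism, listed by function but with earlier results of these data known, were more divided. Of 22 measured, 10 were higher (45.5%), 5 lower (22.7%) and 7 did not pass, with a median log2 fold change of 0.28. Without resting replicate 1 only 1 was lower, and without proliferating replicate 2 or after quantile normalization 3 were. By the same test 25.6% of all genes were higher and 34.5% lower. The 4 assembly factors of succinate dehydrogenase rose on the deposited scale, whereas Sdhaf1 and Sdhaf3 had log2 fold changes below 0 relative to housekeeping genes (only Sdhaf3 without Hprt), as did all but Sdhaf4 relative to the Cd3 genes. Sdhaf4, which protects the flavoprotein subunit before assembly, was at 8.88 and 8.98 in proliferating Tregs, against 5.68 and 5.57 in resting Tregs (9.87-fold, adjusted p = 7.67e-06). Sdhaf2, which helps to attach its flavin, was at 8.71 and 8.69 in proliferating Tregs, against 7.07 and 7.35 in resting Tregs (2.81-fold, adjusted p = 1.36e-04). The log2 fold change of Sdhaf4 was thus above that of each subunit gene. Sdhaf1 and Sdhaf3 had log2 fold changes of 0.97 and 0.54, although a dimmer probe set of Sdhaf1 had -0.21 and did not pass. Glul, the glutamine synthetase gene, was at 9.28 and 9.35 in proliferating Tregs, against 6.76 and 6.93 in resting Tregs (5.55-fold, adjusted p = 1.49e-05). Its other probe set, dimmer over the 4 arrays but brighter in resting Tregs (7.395 and 7.21), rose 1.53-fold. Lias, which makes the lipoic acid of both dehydrogenase complexes, Ldha and Ldhb, which interconvert pyruvate and lactate, the PDH phosphatase gene Pdp1 and Pck2 made up the rest of the increases, at 1.00, 0.79, 0.61, 0.38 and 0.37 on the log2 scale.

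By the brightest probe set of each gene, the 3 largest decreases were in Ogdhl, D2hgdh and Dhtkd1. Ogdhl, a relative of Ogdh, was at 5.65 and 5.69 in proliferating Tregs, against 6.44 and 6.46 in resting Tregs (log2 fold change -0.79, adjusted p = 0.00146). D2hgdh, which oxidises D-hydroxyglutarate, was at 6.49 and 6.52 in proliferating Tregs, against 7.33 and 6.92 in resting Tregs (log2 fold change -0.62, adjusted p = 0.0128). Dhtkd1, an oxoadipate dehydrogenase subunit related to Ogdh, was at 5.51 and 5.78 in proliferating Tregs, against 6.19 and 6.08 in resting Tregs (log2 fold change -0.49, adjusted p = 0.0216). In these genes no proliferating array reached the resting ones, which was also so in 48.1% of all genes. Having been picked as the largest decreases, they were likely to separate in this way. Me3, another mitochondrial malic enzyme, and Pcx, the pyruvate carboxylase that refills oxaloacetate, had log2 fold changes of -0.45 and -0.42. The dimmer probe set of Me3 was at 4.69 and 4.93 in proliferating Tregs, against 5.57 and 5.72 in resting Tregs, a larger decrease than that of Ogdhl (log2 fold change -0.84, adjusted p = 0.00225 over all named probe sets). Pdk4, the remaining PDH kinase, was at 5.96 and 6.04 in proliferating Tregs, against 6.23 and 6.18 in resting Tregs, just below, and did not pass (log2 fold change -0.20, adjusted p = 0.197). Of the 22 genes, 2 were higher and 16 lower with housekeeping genes as the scale (3 and 14 without Hprt), 2 and 20 with the Cd3 genes, and 12 and 1 after centring on the median of all genes.

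**Figure D5:**
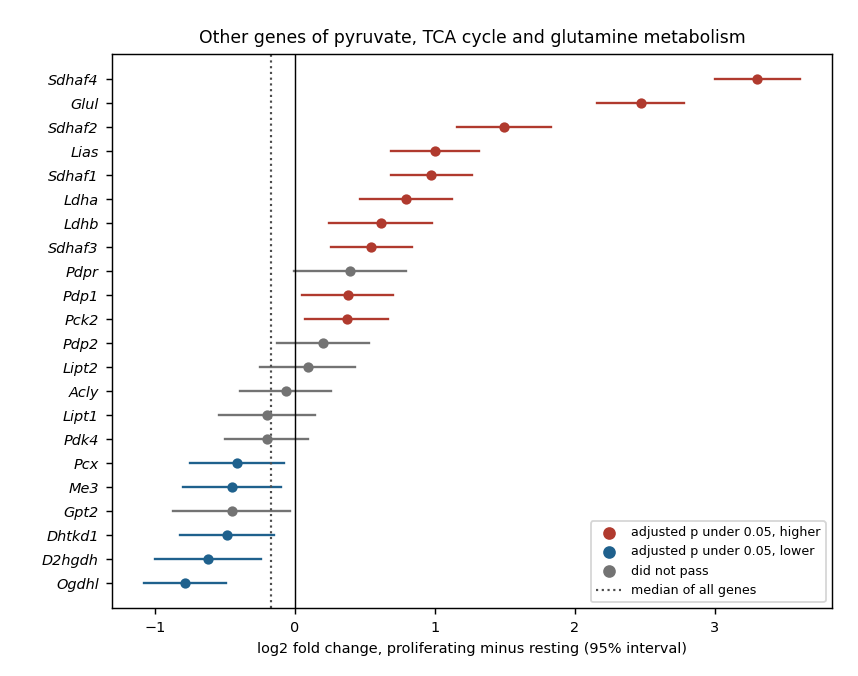
Log2 fold change, proliferating minus resting (x axis), with its 95% interval from the limma fit (bars), of 22 other genes of pyruvate, TCA cycle and glutamine metabolism (y axis) on the deposited values. Genes past the test are red (10 higher) or blue (5 lower) and the others grey, and the dotted line marks the median of all genes at -0.17. Centred on the Cd3 genes, 2 were higher and 20 lower.

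The absolute difference between replicates had a median of 0.0978 in proliferating Tregs and 0.158 in resting Tregs over the 33 genes, against 0.156 in proliferating Tregs and 0.138 in resting Tregs over all genes. Its largest values were 0.68 in proliferating Tregs, in Me1, and 0.71 in resting Tregs, in Mpc1. Genes are not independent replicates, but as a description Pearson's r across them was 0.981 between the proliferating arrays and 0.980 between the resting arrays, and 0.797 to 0.819 between the groups.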

How the data were processed

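Affymetrix whole-transcript arrays measured RNA of 2 proliferating and 2 resting Treg samples, grouped by their titles. The deposited values are log2 expression values per probe set that the authors made, per the labels, with RMA (background subtraction, a common distribution of probe signals and median polish) in Partek 6.6. Across genes these values still spread wider in proliferating than in resting Tregs. The table states neither scale nor centring, so log2 was read from those notes and the range of the values. The methods name instead normalization with housekeeping gene controls, R and another array design. RMA compresses low values, and no detection calls were used, so dim was not taken to mean absent. The number of arrays limits the precision.

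Of 41345 probe sets, 23521 carried 1 gene name in the platform annotation (23328 matched RefSeq by gene identifier, 0 symbols changed), 1820 carried several and 16004 none here. The one with the highest mean over the 4 arrays, called the brightest, stood for each of 22180 genes. A linear model with empirical Bayes moderation (limma 3.58.1, R 4.3.3) gave proliferating minus resting, with 2 residual and 5.48 prior degrees of freedom and Benjamini-Hochberg adjustment over all genes at 0.05. The code was tested on simulated data. Differences of related genes were compared within arrays with an exact permutation test.

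Members and lists were chosen with earlier results of these data known. Every member is named. Of the other genes, those past the test with the 3 largest changes each way were to be named, and further ones were named after their values were seen. Alternatives were a trended and robust prior, 2 filters on dim genes, other choices of probe set, quantile normalization, 4 centrings, a replicate block, the methods' Student's t-test and each array left out. The filter at 7, the least bright probe set and the housekeeping scale without Hprt were added after seeing the data. The promoter motifs were chosen after the sequences were seen. Promoter sequences are from RefSeq, GRCm38.p6, a C57BL/6J reference.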

Additional observations from a re-analysis of the deposited data

How the results depend on the processing

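The 29 increases rest on the scale of the deposited values. The count was 29 with a trended and robust prior, with genes of mean under 5 left out, with the mean of probe sets and after centring on the median of all genes, 28 with the least bright probe set, 23 after quantile normalization and, of 23 tested, 23 with genes of mean under 7 left out. None of the 33 genes was lower in any of these settings. The result of 23 higher among 23 tested is partly built in, since some genes reach that mean only through their proliferating values. Centred on housekeeping genes 9 were higher and 12 lower (15 and 5 without Hprt), centred on the Cd3 genes 1 and 27, and the methods' t-test, once adjusted, called 18 higher. Leaving out 1 array gave 24 to 29 higher and 0 lower, and 7 to 9 of the other pathway genes higher and 1 to 5 lower. Where a group keeps 1 array, its spread is taken to equal that of the other group. Over all genes the same settings gave 4379 to 5735 higher and 3962 to 7537 lower. The lowest counts came without a resting array (3962 lower without resting replicate 1, 4428 without resting replicate 2).

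Over all genes 7269 were higher and 4044 lower after centring on the median, 5606 and 4702 after quantile normalization, 1417 and 18579 with housekeeping genes as the scale (2280 and 16712 without Hprt), 329 and 21009 with the Cd3 genes, 2781 and 1531 by the methods' t-test, and 3709 and 1013 with genes of mean under 7 left out, which tests fewer genes. The share of called genes that were higher was 42.7% on the deposited values, 54.4% after quantile normalization, 64.3% after median centring, 7.09% after housekeeping centring (12% without Hprt), 1.54% after Cd3 centring, 64.5% by the methods' t-test and 78.5% with genes of mean under 7 left out. Of the other pathway genes 3 were lower after quantile normalization, 1 after median centring, 16 (2 higher) after housekeeping centring, 14 (3 higher) with that scale without Hprt, 20 (2 higher) after Cd3 centring, 1 (6 higher) by the methods' t-test and 0 (6 higher, of 7 tested) with genes of mean under 7 left out, as the limma test called them in all but the t-test. The cause was not tested where it does not follow from the setting itself.

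Centred on housekeeping genes, the log2 fold changes that turned were Aco1 -1.0, Idh1 -0.53, Idh2 -0.0977, Idh3b -0.34, Ogdh -0.80, Dlst -0.45, Sdha -0.24, Fh1 -0.16, Pdha1 -0.0419, Pdhb -0.0944, Dlat -0.68, Pdhx -0.61, Pdk1 -0.51, Me1 -0.95, Got1 -0.37 and Got2 -0.29. Without Hprt in that scale they were Aco1 -0.66, Idh1 -0.19, Idh3b -0.0064, Ogdh -0.46, Dlst -0.11, Dlat -0.34, Pdhx -0.28, Pdk1 -0.18, Me1 -0.61 and Got1 -0.033. Centred on the Cd3 genes they were Cs -0.79, Aco1 -1.81, Idh1 -1.35, Idh2 -0.92, Idh3a -0.21, Idh3b -1.16, Idh3g -0.53, Ogdh -1.62, Dlst -1.27, Dld -0.11, Sucla2 -0.19, Suclg1 -0.49, Sdha -1.06, Sdhb -0.48, Sdhc -0.62, Sdhd -0.28, Fh1 -0.98, Mdh1 -0.49, Mdh2 -0.69, Pdha1 -0.86, Pdhb -0.91, Dlat -1.50, Pdhx -1.43, Pdk1 -1.33, Me1 -1.77, Me2 -0.42, Got1 -1.19, Got2 -1.11 and Glud1 -0.55. Suclg2, which did not pass, was at 0.0074 after quantile normalization and 0.21 with its least bright probe set, Aco1 was at -0.11 to 0.42 and Me1 at -0.14 to 0.54 with 1 array left out, lowest without proliferating replicate 1 for Aco1 and without proliferating replicate 2 for Me1.

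The replicate numbers were not shown to pair the arrays, since the differences of replicate 1 and replicate 2 correlated by 0.0179 between the groups across all genes. With a replicate block 28 of the genes were higher and 0 lower (5765 and 7929 of all genes, and 11 and 6 of the other pathway genes), and the one call it changed among the 33 was Ogdh (adjusted p = 0.0573).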
